A study of Mus musculus with 40 samples.

Results

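The 10 genes *Ndp*, *Fzd4*, *Lrp5*, *Lrp6*, *Tspan12*, *Ctnnb1*, *Axin2*, *Lef1*, *Sox17* and *Apcdd1* of Norrin and Wnt signalling in the vasculature were followed in the choroid and the retina of mice with laser-induced choroidal neovascularization (CNV). They were the ligand gene *Ndp*, the receptor genes *Fzd4*, *Lrp5*, *Lrp6* and *Tspan12*, the transducer gene *Ctnnb1* and 4 genes taken as readouts, *Axin2*, *Lef1*, *Sox17* and *Apcdd1*. They were selected by symbol through their Ensembl identifiers, by a rule that used no measured value, although the list was drawn up with earlier results of these data known, and all 10 of the 10 were among the 54307 genes listed. Each of the 20 mice gave a choroid and a retina library, which makes 40 libraries.

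Mice on a C57BL/6J background formed 4 groups of n=5. Control mice carried *Tgfbr2* fl/fl without Cre, and *Tgfbr2ΔEC* mice carried *Tgfbr2* fl/fl with heterozygous *Cdh5*-CreERT2, in which the promoter of the endothelial cadherin gene drives a tamoxifen-inducible Cre, so that deletion of the TGFβ receptor gene is directed to endothelial cells alone. Both genotypes received tamoxifen eye drops from 6 to 7 weeks of age on 5 consecutive days, and both received 6 laser burns per eye. Tissue was taken 3 days after the laser. The + PLX groups were fed PLX5622, an inhibitor of the receptor CSF1R that depletes microglia and macrophages, from the first tamoxifen dose to the end, and the – PLX groups were fed the control diet. Every mouse was lasered, and the choroid libraries came from the central choroid that held the lesions. The groups were therefore control – PLX, *Tgfbr2ΔEC* – PLX, control + PLX and *Tgfbr2ΔEC* + PLX.

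Norrin, the secreted product of *Ndp*, is made mainly by Müller glia in the retina and binds Frizzled-4 on endothelial cells together with the co-receptors LRP5 or LRP6. Tetraspanin-12, the product of *Tspan12*, joins this receptor complex and raises its response to Norrin. The signal stabilises β-catenin, the product of *Ctnnb1*, which enters the nucleus and acts with TCF/LEF factors on target genes. Loss of NDP, FZD4, LRP5 or TSPAN12 causes human retinal diseases with incomplete retinal vessels, and the pathway is also needed to form and keep the blood-retina barrier. Wnt ligands use the same receptors, so that the target genes can report either ligand and also cells other than endothelium.

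The positions below are on GRCm39. *Ndp* (ENSMUSG00000040138) lies at chrX:16751756-16778013 on the minus strand. *Fzd4* (ENSMUSG00000049791) lies at chr7:89053563-89062342 on the plus strand. *Lrp5* (ENSMUSG00000024913) lies at chr19:3634821-3736643 and *Lrp6* (ENSMUSG00000030201) at chr6:134423439-134544212, both on the minus strand. *Tspan12* (ENSMUSG00000029669) lies at chr6:21771389-21852619 on the minus strand. *Ctnnb1* (ENSMUSG00000006932) lies at chr9:120757422-120789579 on the plus strand. Of the readout genes, *Axin2* (ENSMUSG00000000142) lies at chr11:108811169-108841609 and *Lef1* (ENSMUSG00000027985) at chr3:130903919-131018005, both on the plus strand. *Sox17* (ENSMUSG00000025902) lies at chr1:4561151-4567784 on the minus strand. The remaining readout gene is *Apcdd1* (ENSMUSG00000071847). Each value is the count of the whole gene, summed over its transcripts.

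*Axin2* and *Lef1* are the readouts with an established TCF/LEF response, and both were higher in the choroid with PLX5622 (values below), so their start regions are printed. RefSeq promoter windows on GRCm39, 250 bases before to 50 bases after a transcript start, were held for 6 of the 10 genes, in 10 windows. *Lrp5*, *Lrp6*, *Sox17* and *Apcdd1* had none in the table used. The windows were searched on both strands for the TCF/LEF core letters CTTTGNN, in which both N stand for A or T. No other motif was searched. Capitals mark a core match, which on the other strand reads as its reverse complement. The windows shown are *Axin2* at chr11:108810925-108811224, the most upstream of the Lef1 windows at chr3:130903696-130903995 and the most downstream of its 4 windows at chr3:130949693-130949992, all on the plus strand.
Axin2 start: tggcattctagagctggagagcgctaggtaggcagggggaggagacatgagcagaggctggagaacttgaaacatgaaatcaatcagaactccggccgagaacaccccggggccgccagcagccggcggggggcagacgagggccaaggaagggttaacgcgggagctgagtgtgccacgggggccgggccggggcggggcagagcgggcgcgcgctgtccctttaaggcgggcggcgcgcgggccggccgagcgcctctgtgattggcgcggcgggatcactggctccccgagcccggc
Lef1 first start: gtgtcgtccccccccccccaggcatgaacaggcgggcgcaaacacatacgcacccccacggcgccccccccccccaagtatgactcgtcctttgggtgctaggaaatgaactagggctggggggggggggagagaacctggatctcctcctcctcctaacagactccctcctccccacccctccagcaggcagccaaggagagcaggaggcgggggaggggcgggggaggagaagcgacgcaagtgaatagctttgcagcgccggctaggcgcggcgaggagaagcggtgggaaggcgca
Lef1 further start: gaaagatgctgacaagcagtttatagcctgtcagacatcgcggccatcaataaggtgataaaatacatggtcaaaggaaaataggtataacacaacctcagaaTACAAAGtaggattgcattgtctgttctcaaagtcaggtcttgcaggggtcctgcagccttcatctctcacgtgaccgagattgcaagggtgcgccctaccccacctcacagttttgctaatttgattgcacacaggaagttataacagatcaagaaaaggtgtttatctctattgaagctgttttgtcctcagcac
Neither the Axin2 window nor the first Lef1 window held a core match, and the downstream Lef1 window held TACAAAG, the reverse complement of CTTTGTA. One of the remaining 7 windows held a match, CTTTGTA in that of *Ndp* at chrX:16777964-16778263 on the minus strand. Thus 2 of the 10 windows had a core match, while 16.9% of the 32851 windows in the table did (5544 windows). A match describes the letters in a window only, and a window without one says nothing about sites elsewhere.

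The deposited values were counts normalised by the authors with DESeq2, here called normalised counts. Their sums per library were 24718469 to 25956180 in choroid and 22256892 to 24507335 in retina, and the steps between low values put the reads per library at about 21.6 to 28.3 and 20.9 to 30.5, in units of 1000000. Pairs of libraries of the same group correlated with r between 0.947 and 0.977 across genes. Photoreceptor and endothelial markers fitted the labelled tissues: the photoreceptor markers were lower in choroid for 10 of 10 genes, and the endothelial markers were higher in choroid for 10 of 11, the exception being *Kdr* (log2 difference 0.12). The 7 Müller glia markers were divided. *Car14* (mean 8603 in choroid and 1626 in retina) and *Rlbp1* (22958 and 7606) were higher in choroid, the others in retina. One choroid library stood apart, that of control + PLX mouse 15, whose photoreceptor score (the mean log2 value of the 10 markers) was 12.86 while those of the other 4 of its group were 7.69 to 10.02. The *Tgfbr2ΔEC* – PLX choroids also held more photoreceptor RNA, with a mean score of 12.05 against 9.66 in control – PLX, and these groups did not overlap (exact permutation test, p = 0.00794). The targeted gene *Tgfbr2* did not pass between genotypes in whole tissue. Its normalised count in choroid was 10503 ± 425 in control – PLX, 10176 ± 1077 in *Tgfbr2ΔEC* – PLX, 11155 ± 1530 in control + PLX and 11220 ± 454 in *Tgfbr2ΔEC* + PLX (SD, n=5), with adjusted p = 0.92 between genotypes without PLX, and in retina 213 ± 55.4, 178 ± 73.8, 123 ± 35.7 and 113 ± 20 in the same order. Whole tissue holds many cells in which this Cre is not active, so that this count cannot check deletion in the endothelium. The authors reported the deletion from PCR and qPCR of choroidal tissue, which are not part of these data.

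The ligand gene and the receptor genes had opposite tissue patterns. *Ndp* was the only one of the 10 genes with every retina library above every choroid library, whereas *Fzd4*, *Lrp5*, *Lrp6*, *Tspan12*, *Ctnnb1* and *Sox17* were higher in every choroid library than in any retina library. How many of all genes separated the tissues in this way was not counted. *Axin2* did not differ between the tissues past the threshold, and *Apcdd1* was slightly higher in retina. In all, 9 of the 10 genes passed adjusted p of 0.05 in the comparison of choroid with retina, 7 higher and 2 lower, while 82% of the 24317 genes tested passed, 40.8% higher and 41.1% lower in choroid. The share is thus not particular to these genes. In bulk tissue, fewer cells of a type and less RNA per cell cannot be told apart.

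**Figure D1:**
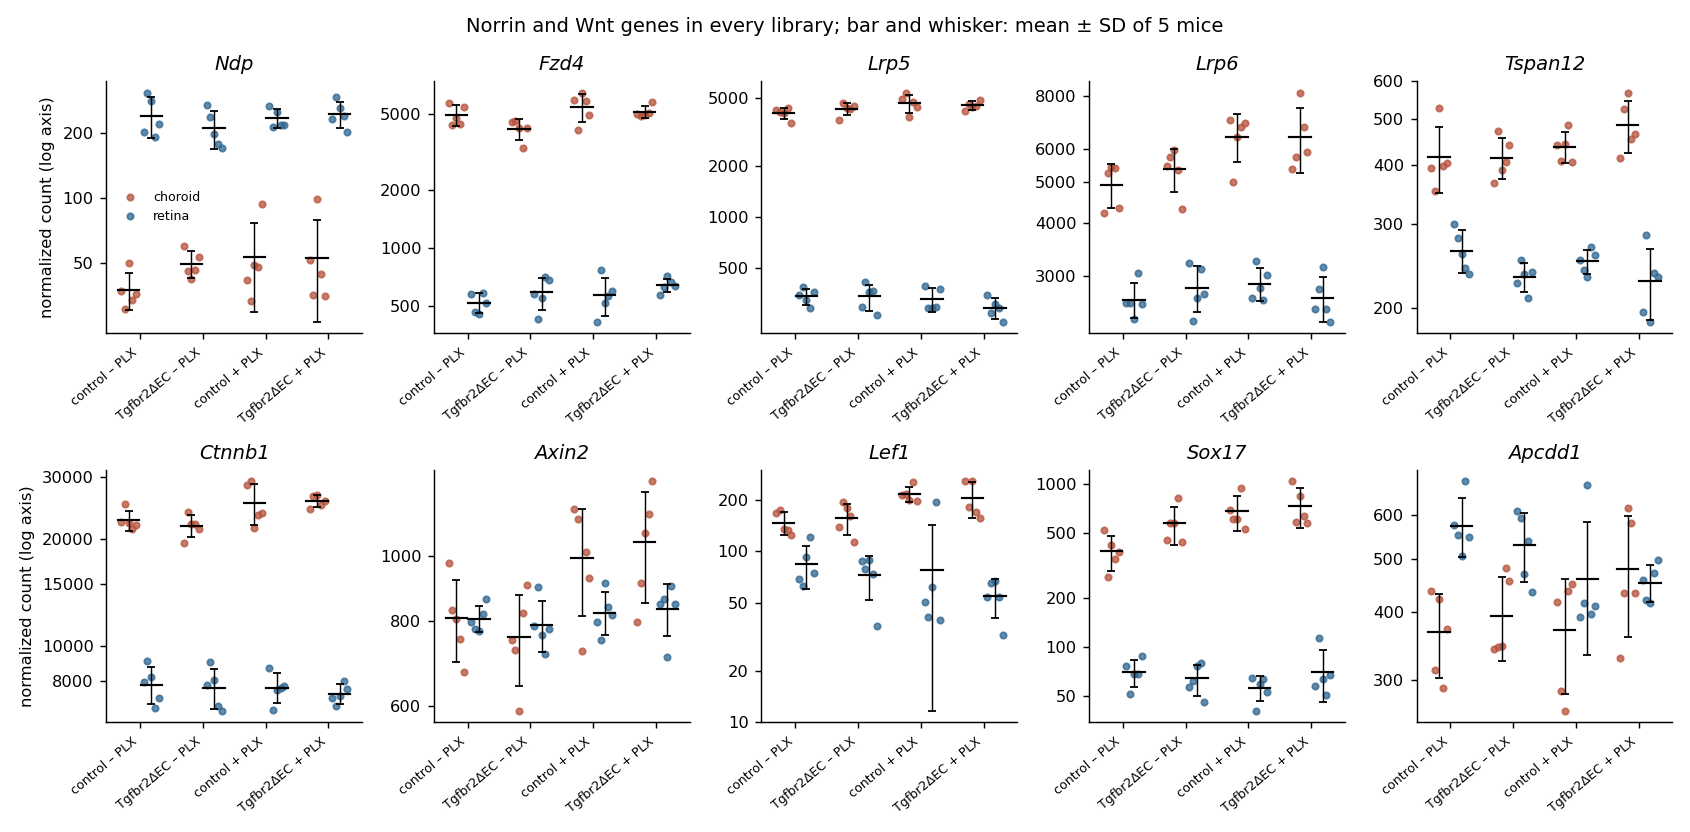
Normalised counts (log axis) of the 10 genes in each of the 40 libraries, by group, with the choroid in red and the retina in blue; bars and whiskers are the mean ± SD of 5 mice. The retina points of *Ndp* lie above its choroid points, the choroid points of *Fzd4*, *Lrp5*, *Lrp6*, *Tspan12*, *Ctnnb1* and *Sox17* lie above their retina points, and those of *Axin2*, *Lef1* and *Apcdd1* overlap.

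*Ndp* encodes Norrin, the ligand. In the retina its normalised counts were 192, 203, 219, 282 and 307 in control – PLX and 170, 178, 198, 236 and 269 in *Tgfbr2ΔEC* – PLX. With PLX5622 they were 214, 218, 219, 250 and 267 in control and 203, 231, 240, 260 and 292 in *Tgfbr2ΔEC* retina. The 4 retina groups overlapped throughout, with means between 210 and 245. In choroid the counts were low, 30.8, 34, 36.2, 37.4 and 50.1 in control – PLX and 42.3, 46.2, 46.8, 53.6 and 60.2 in *Tgfbr2ΔEC* – PLX. They were 33.5, 41.8, 48.3, 49.3 and 94.3 in control + PLX and 35.2, 35.8, 44.5, 51.6 and 98.9 in *Tgfbr2ΔEC* + PLX. One library in each + PLX group thus stood far above the other 4, and the 94.3 was the choroid of mouse 15 with the high photoreceptor score, while the 98.9 was the choroid of mouse 18, with a score of 10.34 beside 9.02 to 10.31 in the other 4 of its group. Over the 20 mice *Ndp* was lower in choroid by a log2 difference of -2.29 (95% confidence interval -2.52 to -2.06), a level 0.205 times that of retina, and it was lower in 20 of 20 mice. Without mouse 15 the log2 difference was -2.35. The Müller glia score is the mean log2 value of 7 markers. Over the 20 choroids it had r = 0.55 with *Ndp* (permutation test, p = 0.01213, adjusted p = 0.088), and 0.57 within groups. Without the 2 libraries farthest from the median score r was 0.31, and over the 20 retinas it was 0.06. The score was 11.815 in the choroid of mouse 15 and 11.405 in that of mouse 18.

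*Fzd4*, the Norrin receptor, ran the other way. Its normalised counts in choroid were 4374, 4444, 4763, 5469 and 5693 in control – PLX and 3323, 4225, 4241, 4569 and 4599 in *Tgfbr2ΔEC* – PLX. With PLX5622 they were 4147, 4925, 5878, 5940 and 6484 in control and 4895, 4943, 5021, 5084 and 5755 in *Tgfbr2ΔEC* choroid. *Tgfbr2ΔEC* – PLX held the lowest library and had the lowest mean, and the groups of each diet overlapped. All 20 retina libraries lay between 411 and 764, and the level in choroid was 8.55 times that in retina (log2 difference 3.10, 95% confidence interval 2.96 to 3.23).

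The co-receptors LRP5 and LRP6 can stand in for each other in part, and their genes differed in how far the tissues lay apart. *Lrp5* ranged from 3565 to 5405 normalised counts in choroid and from 241 to 414 in retina, a 13.55-fold difference (log2 3.76, 3.65 to 3.88), which was the greatest of the 10 genes. *Lrp6* differed 2.08-fold (log2 1.06), with 2333 to 3261 normalised counts in retina. In choroid the *Lrp6* counts were 4219, 4347, 5252, 5400 and 5437 in control – PLX, 4320, 5344, 5465, 5733 and 5957 in *Tgfbr2ΔEC* – PLX, 5002, 6383, 6755, 6884 and 7015 in control + PLX, and 5375, 5720, 5892, 6741 and 8144 in *Tgfbr2ΔEC* + PLX. Thus 6 of the 10 + PLX choroids lay above every – PLX choroid. *Tspan12*, the tetraspanin of the receptor complex, had 353 to 568 normalised counts in choroid and 187 to 301 in retina (1.79-fold, log2 0.84).

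*Ctnnb1* encodes β-catenin, which also joins cadherins at cell junctions and is expressed in most cells. Its normalised counts in choroid were 21416, 21945, 22261, 22392 and 25162 in control – PLX and 19565, 21462, 22102, 22167 and 23959 in *Tgfbr2ΔEC* – PLX. With PLX5622 they were 21590, 23452, 23730, 28410 and 29161 in control and 24370, 25050, 25629, 26440 and 26718 in *Tgfbr2ΔEC* choroid. The *Tgfbr2ΔEC* choroids with and without PLX5622 did not overlap, and the control choroids did. Retina libraries held 6596 to 9089, and choroid was 3.13-fold higher (log2 1.64).

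Among the readouts, *Axin2* encodes a scaffold of the β-catenin destruction complex and is a direct feedback target. Its normalised counts in choroid were 673, 754, 807, 833 and 976 in control – PLX and 591, 726, 751, 822 and 905 in *Tgfbr2ΔEC* – PLX. They were 722, 928, 1012, 1132 and 1171 in control + PLX and 798, 910, 1081, 1154 and 1288 in *Tgfbr2ΔEC* + PLX. The + PLX choroids reached higher and overlapped the – PLX choroids in both genotypes, while the 20 retinas kept to 708 to 910. The tissue difference was 0.12 on the log2 scale (-0.00 to 0.25, adjusted p = 0.066), *Axin2* was higher in choroid in 13 of 20 mice, and it was at -0.0002 when each library was scaled to a common total, so that no direction can be given.

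*Lef1* encodes a TCF/LEF transcription factor that is itself a target of the pathway. In choroid its normalised counts were 124, 134, 136, 167 and 176 in control – PLX and 114, 139, 162, 179 and 196 in *Tgfbr2ΔEC* – PLX. They were 198, 200, 215, 217 and 254 in control + PLX and 156, 171, 182, 257 and 258 in *Tgfbr2ΔEC* + PLX. Every control + PLX choroid was above every control – PLX choroid, while the *Tgfbr2ΔEC* groups overlapped. In retina the counts were 62.9, 68.7, 74.6, 93.4 and 121 in control – PLX and 36.8, 73.5, 79.0, 87.9 and 88.7 in *Tgfbr2ΔEC* – PLX, and with PLX5622 39.9, 41.2, 50.7, 61.5 and 194 in control and 32.5, 53.8, 53.9, 65.8 and 67.4 in *Tgfbr2ΔEC* mice. Only the 194 of control + PLX mouse 14 and the 121 of 1 control – PLX mouse reached the choroid range. *Lef1* was higher in choroid in 20 of 20 mice, 2.65-fold (log2 1.41, 1.11 to 1.70).

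*Sox17* encodes an endothelial transcription factor of arterial identity that has been placed downstream of Norrin in retinal vessels. In choroid its normalised counts were 267, 344, 381, 424 and 521 in control – PLX and 440, 452, 572, 579 and 818 in *Tgfbr2ΔEC* – PLX. They were 528, 609, 613, 696 and 948 in control + PLX and 576, 586, 638, 844 and 1038 in *Tgfbr2ΔEC* + PLX. Control – PLX held the 4 lowest choroids of the 20, and all 5 of its values were below the lowest of either + PLX group. Retina libraries held 40.6 to 113, and choroid was 8.74-fold higher (log2 3.13, 2.91 to 3.35).

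*Apcdd1* encodes a membrane-bound Wnt inhibitor that is induced by Norrin in retinal endothelium. In retina its normalised counts were 505, 547, 551, 577 and 692 in control – PLX and 435, 468, 539, 593 and 611 in *Tgfbr2ΔEC* – PLX. They were 392, 396, 410, 415 and 682 in control + PLX and 415, 420, 457, 470 and 497 in *Tgfbr2ΔEC* + PLX. All but one of the control + PLX retinas were below every control – PLX retina, the exception being mouse 13. Choroid libraries ranged from 264 to 618, and choroid was lower by a log2 difference of -0.34 (-0.51 to -0.16, adjusted p = 0.00053) with 7 of 20 mice against this direction.

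Divided by the length of each gene's canonical transcript, the counts can be ordered between genes. In choroid *Ctnnb1* was highest at 6548 normalised counts per kb, followed by *Lrp5* at 852, *Fzd4* at 735 and *Lrp6* at 595. The lower genes were *Axin2* at 204, *Sox17* at 190, *Tspan12* at 169, *Lef1* at 71.4, *Apcdd1* at 37 and *Ndp* at 25 per kb. Most neighbours in this order were not separated in every mouse: *Lrp5* was above *Fzd4* in 17 of 20 choroids, *Fzd4* above *Lrp6* in 18, *Axin2* above *Sox17* in 13, *Sox17* above *Tspan12* in 14 and *Apcdd1* above *Ndp* in 18. In retina the order per kb was *Ctnnb1* at 2093, *Lrp6* at 283, *Axin2* at 184, *Ndp* at 120, *Tspan12* at 94.0, *Fzd4* at 86.1, *Lrp5* at 63.1, *Apcdd1* at 46.3, *Lef1* at 28.4 and *Sox17* at 20.8. There *Ndp* exceeded *Tspan12* in 18 of 20 libraries, *Tspan12* exceeded *Fzd4* in 13, *Fzd4* exceeded *Lrp5* in 17, *Lrp5* exceeded *Apcdd1* in 18, *Apcdd1* exceeded *Lef1* in 19 and *Lef1* exceeded *Sox17* in 15. *Lrp5* thus ranked above *Lrp6* per kb in choroid and below it in retina. These levels rest on 1 transcript per gene and would shift with another.

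Of the genes followed here, *Lrp5*, *Sox17* and *Fzd4* had tissue differences nearest to the median of the endothelial markers. The 11 markers had a median log2 difference of 3.73, and mural cell, fibroblast, RPE, melanocyte, phagocyte, skeletal muscle and Schwann cell markers were also higher in choroid, each list in all of its members. With the endothelial score (the mean log2 value of the 11 markers) subtracted in each library, *Lrp5* differed by -0.07 on the log2 scale (adjusted p = 0.31), *Sox17* by -0.70 and *Fzd4* by -0.74. Other genes lay further from the markers on this scale, at -2.19 for *Ctnnb1*, -2.77 for *Lrp6* and -2.99 for *Tspan12*, and *Ndp* stood at -6.12. Nearness to the other marker lists was not examined. Within groups in choroid, r with the endothelial score was 0.27 for *Lrp5*, 0.28 for *Sox17* and -0.21 for *Fzd4*. With the score of the RPE markers it was 0.53, 0.19 and 0.27 in the same order. What each cell type contributed to the tissue differences was not tested.

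**Figure D2:**
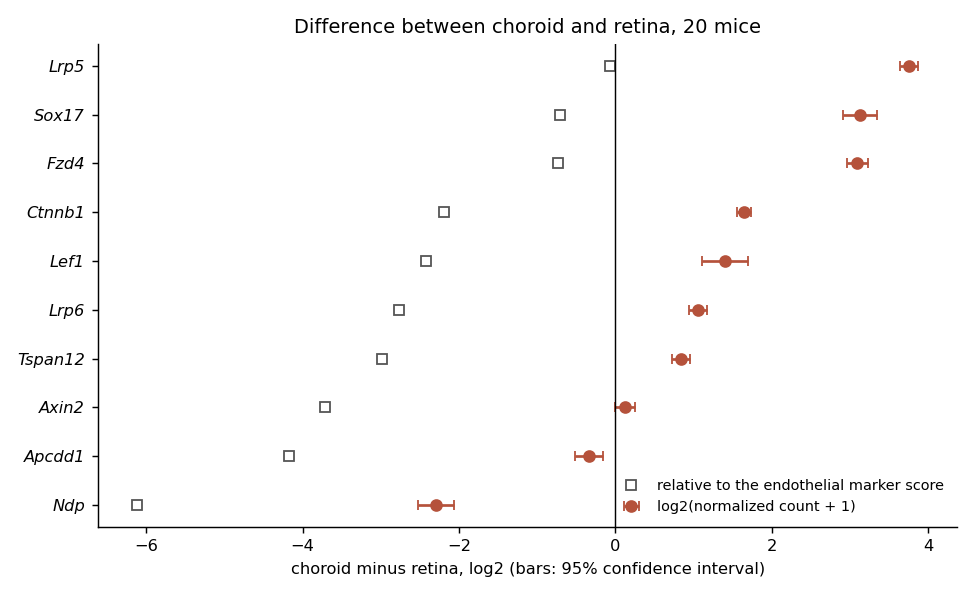
Difference between choroid and retina (choroid minus retina, log2) of the 10 genes in 20 mice, as filled circles with 95% confidence intervals, and the same after subtraction of the endothelial marker score, as open squares. *Lrp5* stands at 3.76 and then at -0.07, *Ndp* at -2.29 and then at -6.12.

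PLX5622 raised 4 of the 10 genes in choroid. Over both genotypes, with 10 mice against 10, *Sox17* rose by 0.59 on the log2 scale (0.28 to 0.89, 1.5-fold, adjusted p = 0.0148), *Lef1* by 0.46 (0.21 to 0.72, 1.38-fold, adjusted p = 0.0226), *Axin2* by 0.37 (0.15 to 0.59, 1.29-fold, adjusted p = 0.0358) and *Lrp6* by 0.31 (0.13 to 0.49, adjusted p = 0.0323), each in limma with Benjamini-Hochberg adjustment over all genes. Exact permutation within genotypes gave p = 0.00205, 0.00145, 0.00422 and 0.0034 for the same 4 genes. Among the genes that did not pass in limma, exact permutation gave p = 0.00233 for *Ctnnb1*, 0.0188 for *Fzd4* and 0.0331 for *Lrp5*. The others had 0.0566 or more. Of the 23619 genes tested in choroid 7.13% passed, and 2.07% passed as higher. The median log2 difference was 0.21 over the 10 genes and 0.00 over all genes, and all 10 were above 0.

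The remaining 6 genes did not pass. *Ctnnb1* differed by 0.19 (adjusted p = 0.060), *Fzd4* by 0.22 (adjusted p = 0.13), *Lrp5* by 0.13 (adjusted p = 0.23) and *Tspan12* by 0.15 (adjusted p = 0.32), all on the log2 scale. *Ndp* (0.21, adjusted p = 0.65) and *Apcdd1* (0.13, adjusted p = 0.67) had wide spread. Without mouse 15 the log2 difference of *Ndp* was 0.09, and without mouse 18 it was 0.08. That of *Apcdd1* was 0.08 to 0.19 with 1 mouse left out. With each of the 20 mice left out in turn, *Sox17* and *Lef1* passed every time, while *Lrp6* lost its call in 8 cases and *Axin2* in 12. The count of called genes was 2, *Sox17* and *Lef1*, when any 1 of mice 5, 11, 14, 18 and 19 was left out, 5 when mouse 2 or mouse 13 was left out, and 4 without mouse 15. Because of the unequal photoreceptor RNA in choroid, the fit was repeated with the photoreceptor score as a term, in which *Sox17* alone passed (adjusted p = 0.034), and without the mean-variance trend 2 of the 10 genes passed.

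Taken by genotype, which was added after the data were seen, only *Sox17* in control mice passed (log2 0.81, adjusted p = 0.028), where 3.75% of all genes did, and none of the 10 passed in *Tgfbr2ΔEC* mice, where 4.06% did. The difference between the genotypes in the *Sox17* effect was -0.45 on the log2 scale (adjusted p = 0.93), so that the effects were not shown to differ. In the 5-against-5 comparisons the + PLX choroids lay wholly above the – PLX choroids for *Lef1* and *Sox17* in control mice and for *Fzd4* (log2 0.30) and *Ctnnb1* (0.23) in *Tgfbr2ΔEC* mice. The exact permutation p was then 0.00794, the smallest that 252 splits can give. How many of all genes separated wholly with the diet was not counted. At an unadjusted limma p under 0.05 there were 3249 genes in control and 3634 in *Tgfbr2ΔEC* choroid, of 23619 tested. The same *Tgfbr2ΔEC* choroids also differed with the diet in photoreceptor score, which was 12.05 without and 9.85 with PLX5622, again without overlap (exact permutation test, p = 0.00794). Over the 20 choroids that score had r = -0.57 and rho = -0.52 with *Fzd4* (permutation test, p = 0.0077 and 0.02062, adjusted p = 0.071 and 0.118, r = -0.38 without the 2 farthest libraries and -0.32 within groups). With *Ctnnb1* it had r = -0.46 and rho = -0.49 (permutation test, p = 0.04159 and 0.02758, adjusted p = 0.196 and 0.123, then -0.33 and -0.29). With the score as a term, the effect over both genotypes was 0.17 for *Fzd4* and 0.16 for *Ctnnb1*. In all, 80 exact 5-against-5 tests of genotype or diet were made on the 10 genes over both tissues, 8 had p under 0.05 and 4 would by chance.

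**Figure D3:**
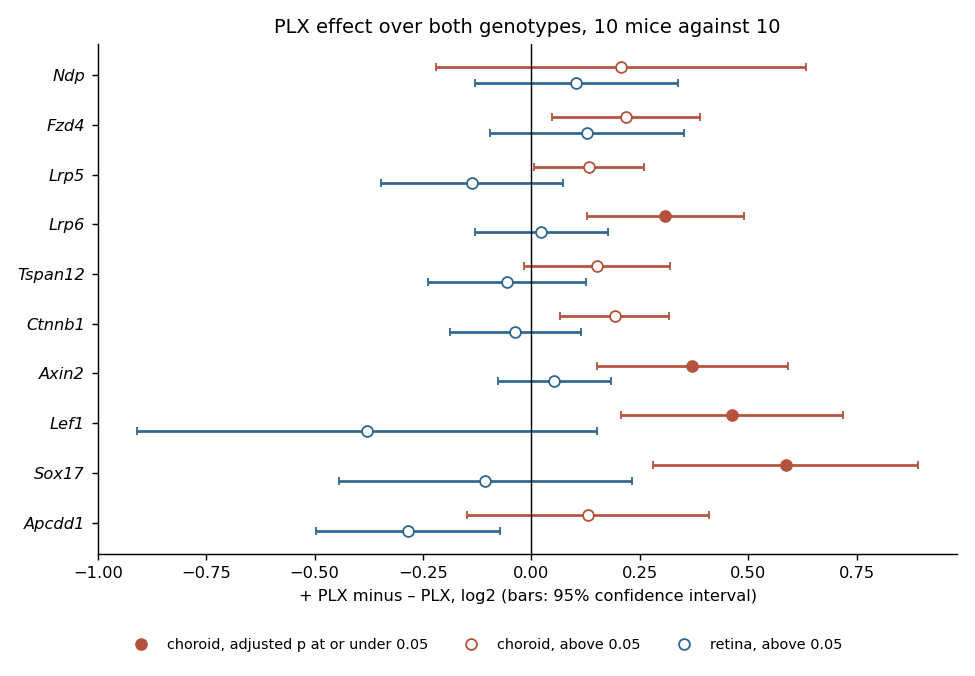
Effect of PLX5622 (+ PLX minus – PLX, log2, over both genotypes, 10 mice against 10) on the 10 genes in choroid (red) and retina (blue), with 95% confidence intervals; filled points passed adjusted p of 0.05. *Sox17*, *Lef1*, *Axin2* and *Lrp6* in choroid are filled, at 0.59, 0.46, 0.37 and 0.31, and no retina point is.

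In choroid with PLX5622, 2.07% of all genes passed as higher and 1195 of 23619 as lower. Endothelial markers rose in the same choroids. Of the 11, 6 passed, all higher, among them *Pecam1* (log2 0.24), *Tie1* (0.27), *Esam* (0.35) and *Egfl7* (0.35), and the endothelial score was 0.25 higher with PLX5622 (exact permutation test, p = 0.000189). Its group means were 11.23 in control – PLX, 11.31 in *Tgfbr2ΔEC* – PLX, 11.50 in control + PLX and 11.55 in *Tgfbr2ΔEC* + PLX. Mural cell markers rose in 2 of 6, *Myh11* (0.74) and *Rgs5* (0.45), and their score was 0.32 higher (exact permutation test, p = 0.000472). Fibroblast markers rose in 1 of 5, *Dcn* (0.45), and their score was 0.24 higher (exact permutation test, p = 0.00085), so that the rise was not limited to vascular markers. The phagocyte markers that PLX5622 is given to remove fell in 7 of 8 in choroid, with a score lower by -2.40 (exact permutation test, p = 3.2e-05, the smallest that it can give). With the endothelial score as a term in the fit, the log2 differences with PLX5622 were 0.35 for *Sox17* (adjusted p = 0.75), 0.35 for *Lef1* (adjusted p = 0.68), 0.25 for *Axin2* (adjusted p = 0.77) and 0.18 for *Lrp6* (adjusted p = 0.80), and none of the 10 genes passed. The score itself differs between the diets, so that the share of endothelial RNA and the diet cannot be told apart in this fit.

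Across the 20 choroids, the relation with the endothelial score passed by Pearson's r in *Sox17*, *Ctnnb1*, *Lrp6* and *Lef1*, and by rank in *Sox17* and *Tspan12*. *Sox17* had Pearson's r = 0.68 and Spearman's rho = 0.78 (permutation test, p = 0.0009 and 0.00016, adjusted p = 0.034 and 0.0128 over the 80 relations of 10 genes with 4 scores in 2 tissues), and r = 0.64 without the 2 libraries farthest from the median score. *Ctnnb1* had r = 0.65 and rho = 0.64 (permutation test, p = 0.00166 and 0.00255, r = 0.54 without the 2 farthest libraries). *Lrp6* had r = 0.65 and rho = 0.63 (permutation test, p = 0.00185 and 0.00349, then r = 0.53), and *Lef1* r = 0.63 and rho = 0.62 (permutation test, p = 0.00319 and 0.00399, then r = 0.54). For these 3 genes the adjusted p was 0.034 to 0.043 for r and 0.051 to 0.053 for rho, so that the rank relation did not pass. *Tspan12* had rho = 0.69 (permutation test, p = 0.00091, adjusted p = 0.0364) and r = 0.54 (permutation test, p = 0.01423, adjusted p = 0.088, then r = 0.47). Within the groups these relations were weaker, with r = 0.28 for *Sox17*, 0.35 for *Ctnnb1*, 0.27 for *Lrp6*, 0.18 for *Lef1* and 0.33 for *Tspan12*, and within the diets, without and with PLX5622, r was 0.46 and 0.37 for *Sox17*, 0.01 and 0.43 for *Ctnnb1*, 0.46 and 0.22 for *Lrp6*, 0.04 and 0.29 for *Lef1*, and 0.23 and 0.46 for *Tspan12*. In each of the 5 genes r was lower within groups than over all libraries, which include the distance between the diets. *Fzd4* had r = 0.22 with this score over the 20 choroids, -0.80 without and 0.03 with PLX5622, and -0.21 within groups. Over the 20 retinas *Fzd4* had r = -0.50 with the endothelial score (permutation test, p = 0.02702, adjusted p = 0.144). *Axin2* passed with the score of the retinal pigment epithelium (RPE), with r = 0.65 and rho = 0.62 (permutation test, p = 0.00211 and 0.00466, adjusted p = 0.034 and 0.053), 0.59 without the 2 farthest libraries, 0.65 within groups, and 0.58 without and 0.64 with PLX5622. Its relation with the endothelial score had r = 0.58 and rho = 0.56 (permutation test, p = 0.00753 and 0.01032, adjusted p = 0.071 and 0.083, r = 0.48 without the 2 farthest libraries and 0.21 within groups), and the relations with the 2 scores were not compared by a test. With the RPE score as a term in the fit, an alternative added after the data were seen, *Sox17* and *Lrp6* passed in choroid and *Axin2* and *Lef1* did not.

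**Figure D4:**
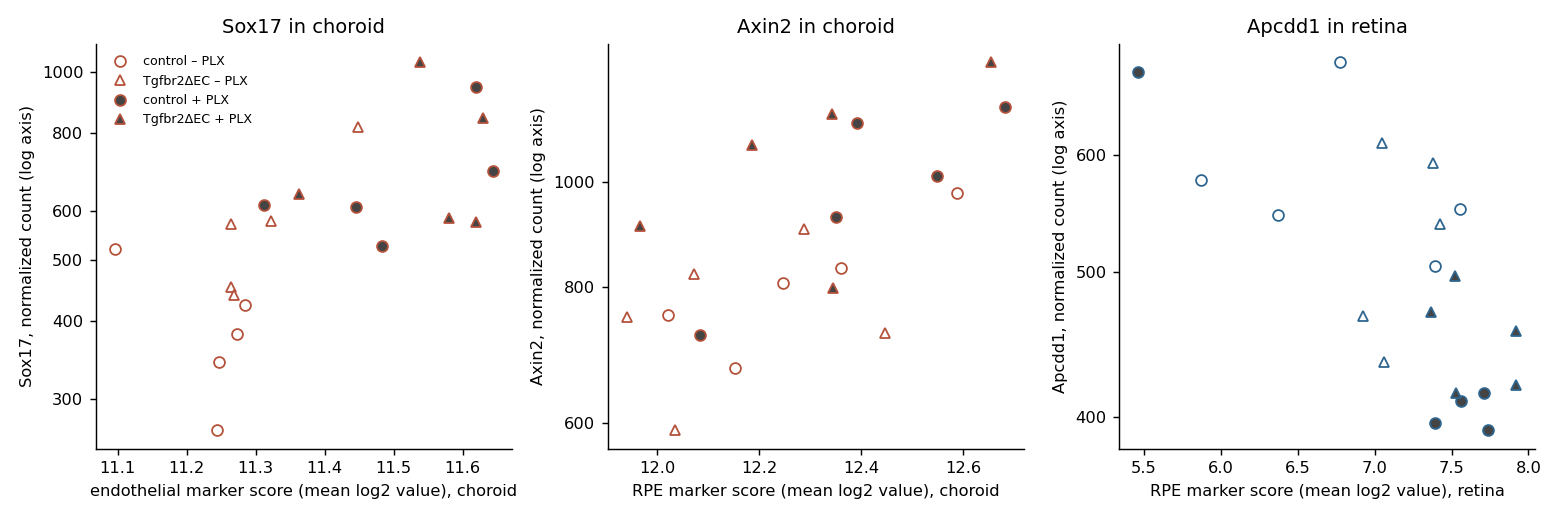
Normalised counts (log axis) of *Sox17* and *Axin2* in choroid and of *Apcdd1* in retina against the mean log2 value of a marker list in the same 20 libraries, by group (open – PLX, filled + PLX; circles control, triangles *Tgfbr2ΔEC*). *Sox17* and *Axin2* rise with the endothelial and the RPE score (r = 0.68 and 0.65), *Apcdd1* falls with the RPE score (r = -0.66), and 1 control + PLX retina lies apart from the other 4 of its group, at an RPE score of 5.46.

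No gene of the 10 passed for PLX5622 in retina, where 1.09% of 23243 genes did (4 higher and 250 lower) and where the phagocyte markers fell in 8 of 8, with a score lower by -5.66. *Apcdd1* had the smallest p of the 10, with a log2 difference of -0.28 (-0.50 to -0.07, adjusted p = 0.41, exact permutation test over both genotypes p = 0.0125). One retina decided this call: without control + PLX mouse 13, whose *Apcdd1* count of 682 was in the – PLX range, the log2 difference was -0.36 with adjusted p = 0.032. The same retina held the least RPE RNA, with an RPE score of 5.46 while the other 4 of its group had 7.40 to 7.74. Over the 20 retinas *Apcdd1* and the RPE score had r = -0.66 and rho = -0.68 (permutation test, p = 0.00093 and 0.00138, adjusted p = 0.034 and 0.037), r = -0.55 without the 2 farthest libraries and -0.62 within groups. By diet r was -0.18 without and -0.87 with PLX5622, and the latter became -0.11 over n=9 without mouse 13, so that the relation within + PLX rests on that retina. With the RPE score as a term the log2 difference of *Apcdd1* was -0.19 (adjusted p = 0.78). *Lef1* had a log2 difference of -0.38 in retina (adjusted p = 1.0), and the other 8 genes lay between -0.14 and 0.13.

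The diet effects in the 2 tissues were compared in 1 fit, in which 1.37% of 24317 genes passed and none of the 10 did. All 10 differences, choroid effect minus retina effect, were above 0, with 0.84 for *Lef1* (adjusted p = 0.20) and 0.69 for *Sox17* (adjusted p = 0.12) on the log2 scale. The endothelial markers had the same direction, with 11 of 11 above 0, a median of 0.44 beside 0.00 over all genes, and *Tek* (0.58) and *Tie1* (0.64) called, and the endothelial score in retina was lower with PLX5622 by -0.19 (exact permutation test, p = 0.0455). With the endothelial score subtracted, the difference of the effects was 0.40 for *Lef1* (adjusted p = 0.30) and 0.25 for *Sox17* (adjusted p = 0.35). The 2 retinas with the highest *Lef1* and *Sox17* counts weighed on these values. Without mouse 14, *Lef1* had 1.01 (adjusted p = 0.015), and without mouse 17, *Sox17* had 0.82 (adjusted p = 0.031).

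Deletion of *Tgfbr2* in endothelium was the study's other factor, and none of the 10 genes passed between genotypes in either tissue or diet. The background was as low: in choroid 0.00423% of genes passed without PLX5622 and 0.00423% with it, and 0.00847% over both diets, which is 1, 1 and 2 of 23619 genes. For the interaction of genotype with diet 0% passed in choroid and 0% in retina, and 0% passed between genotypes in retina without, with and over both diets. At an unadjusted p under 0.05 limma had 2184, 889 and 1558 genes between genotypes in choroid and 758, 629 and 878 in retina, and for the interaction 1552 and 567. The choroid counts depended on the fit and on the mice included. When the 2 – PLX groups were fitted alone, 303 genes were called between genotypes, with none of the 10 among them. Without mouse 15, which is a control + PLX mouse and in neither – PLX group, there were 411 genes called between genotypes without PLX5622. Over both diets there were then 77, and 0 of the 10 were among the genes called in either comparison. The cause was not tested.

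*Sox17* came closest in choroid. Without PLX5622 it was 387 ± 94.2 in control and 572 ± 152 in *Tgfbr2ΔEC* (SD, n=5), a log2 difference of 0.56 (0.13 to 0.99, adjusted p = 0.34, exact permutation test p = 0.0317), and with PLX5622 679 ± 162 and 736 ± 200. The – PLX choroids were the groups that differed in photoreceptor score, and with that score as a term the log2 difference of *Sox17* without PLX5622 was 0.53 (adjusted p = 1.0). *Ndp* was 37.7 ± 7.36 and 49.8 ± 7.08 normalised counts in the same groups (log2 0.40, adjusted p = 0.77, exact permutation test p = 0.0317), and with the score as a term its log2 difference was 0.05. *Fzd4* was 4948 ± 601 and 4191 ± 516 (log2 -0.24, adjusted p = 0.54). In retina *Tspan12* was lower in *Tgfbr2ΔEC* over both diets by -0.17 on the log2 scale (exact permutation test p = 0.0253, adjusted p = 0.93), and did not pass over all genes.

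The wider Wnt pathway was described by a list of 91 further genes. Between tissues 87 were tested, 56 were higher in choroid and 27 lower, with a median log2 difference of 1.63 beside -0.01 over all genes, of which 40.8% were higher and 41.1% lower. The same shares stand behind the counts by role. The ligands divided by tissue: 14 of 21 tested were higher in choroid and 6 lower. *Wnt9a* had 778 ± 194 normalised counts in choroid and 50.7 ± 11 in retina (SD, n=20), and *Wnt2* had 78.3 ± 22.9 in choroid and at most 3.98 in any retina. *Wnt10b* was listed at 0 in every retina and at 47.2 to 126 in choroid. *Rspo4*, an R-spondin that amplifies Wnt signals, went the other way with 43.7 ± 7.46 in retina and at most 5.41 in choroid, and *Wnt3* (log2 -1.94) and *Wnt9b* (-1.13) were also higher in retina.

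Receptors of the list were higher in choroid in 12 of 17 and lower in 5. The smallest p values, by which genes are named here, belonged on the choroid side to *Fzd1* (log2 difference 5.28), *Fzd7* (4.45) and *Adgra2* (2.76), the last the co-receptor through which Wnt7 reaches brain endothelium, and on the retina side to *Fzd10* (-3.40), *Lgr5* (-3.13) and *Fzd3* (-1.27). The log2 difference was greater in *Fzd2* (6.395) than in any of these. *Fzd7* had 3916 ± 447 normalised counts in choroid and 180 ± 29.9 in retina. Secreted and membrane inhibitors were higher in choroid in 10 of 15 tested, by smallest p *Sfrp2* (log2 9.99, 10867 ± 2516 against 10.8 ± 6.01 normalised counts), *Dkk2* (7.42) and *Sfrp1* (4.64). *Kremen2* (-1.69), *Frzb* (-1.20) and *Dkk3* (-0.28) were higher in retina. Intracellular components were close to even, with 8 of 19 higher and 9 lower: *Wls* (5.30), which carries Wnt proteins to the cell surface, *Tcf7l1* (2.31) and *Tcf7l2* (2.30) were higher, and *Apc2* (-2.80), *Btrc* (-1.26) and *Porcn* (-1.11) lower. Of the targets and barrier genes 12 of 15 were higher in choroid, with *Plvap* (5.26), the diaphragm protein of fenestrated vessels, *Foxf2* (4.80) and *Ccnd1* (3.16) having the smallest p, and 3 were lower, among them the amino acid carrier gene *Slc38a5* (-1.09) and *Nkd1* (-0.48).

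PLX5622 raised 8 of the 87 tested pathway genes in choroid and lowered none, with 70 above 0 and a median log2 difference of 0.13, in a comparison in which 7.13% of all genes passed and 2.07% as higher. The receptors were *Fzd1* (0.42, adjusted p = 0.0050), *Fzd7* (0.26, adjusted p = 0.0014) and *Reck* (0.45, adjusted p = 0.0065), the last the partner of *Adgra2* in Wnt7 signalling. The inhibitors were *Dkk2* (0.37, adjusted p = 0.0012) and *Wif1* (0.80, adjusted p = 0.030), and the targets were *Nkd2* (0.54, adjusted p = 0.031), the glucose transporter gene *Slc2a1* (0.32, adjusted p = 0.028) and the endothelial factor *Sox18* (0.27, adjusted p = 0.026). No ligand gene of 20 and no intracellular gene of 19 passed, and in retina 0 of 84 did, where 1.09% of all genes passed. The choroid effect exceeded the retina effect in *Fzd7* (log2 difference of the effects 0.52, adjusted p = 0.0029) and *Nkd2* (0.92, adjusted p = 0.047).

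For *Ndp*, *Fzd4*, *Tspan12*, *Lef1* and *Sox17*, genes that moved with them from mouse to mouse were sought by Pearson's r of the deviations from the group means over the 20 libraries of a tissue, among 17597 genes in choroid and 17180 in retina, as a description. In choroid *Ndp* was most like *Mapk8ip2* (r = 0.84), *Elfn1* (0.84) and *Ppfia2* (0.82), *Fzd4* was close to *Man1a* (0.90) and *Nipa1* (0.90), and *Tspan12* was most like *Frmd4a* (0.85), *Bcl6* (0.82) and *Cavin2* (0.73). *Lef1* was nearest to *Ripk1* (0.87), *Gm10557* (0.77) and *Gm48443* (0.74), and *Sox17* to *Nmrk1* (0.75), *Gm37174* (0.75) and *Wdr13* (0.73). In retina *Ndp* was nearest to *Ltv1* (0.89), *Pdia3* (0.87) and *Cct4* (0.85), *Fzd4* to *Rgs9bp* (0.93), *Mef2c* (0.93) and *Syne3* (0.92), and *Tspan12* to *Scn4b* (0.89), *Nat8l* (0.81) and *Vsnl1* (0.80). *Lef1* was there nearest to *Gas2l1* (0.76), *Tbc1d19* (0.75) and *Adamts17* (0.74), and *Sox17* to *Cx3cr1* (0.79), which is also one of the phagocyte markers, *B230217O12Rik* (0.78) and *Fermt3* (0.75). Among the 10 genes themselves the nearest pairs were *Lrp5* with *Ctnnb1* (0.72), *Axin2* with *Lrp5* (0.62) and *Lef1* with *Sox17* (0.58) in choroid, and *Fzd4* with *Lrp6* (0.67) and *Ndp* with *Ctnnb1* (0.59) in retina.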

How the data were processed

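Bulk RNA-seq was measured in choroid and retina of 20 mice (40 libraries, stranded poly(A) single reads). The authors estimated transcript counts with Salmon 1.10.1 against GENCODE transcripts of GRCm39 after FastQC 0.11.5, and deposited gene counts normalised by size factors in DESeq2 1.36.0. The deposited normalised counts carry fractions and are a signal, so that count models were not used and their precision at low values is that of a few reads. Sums differ little between libraries by this scaling, which hides depth. Symbols came from the GRCm39 annotation (53700 identifiers matched, 607 did not), and 17202 genes at 0 everywhere were left out.

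Groups came from the labels. Values were fitted as log2(normalised count + 1) with limma 3.58.1 (trend) in R 4.3.3, with genes of mean 1 or more kept, and called at a Benjamini-Hochberg adjusted p of 0.05. The 4 groups of a tissue shared 1 fit, and tissue comparisons used all 40 libraries. Fold changes are on the log2(value + 1) scale, which understates those of low genes. Sex and the neuronal share, covariates of the study's model, were not in the labels, and scores made from the values stood in as alternatives. Exact two-sided permutation tests of single genes and correlations (100000 permutations) were made in Python 3.11.15 with scipy 1.17.1. The fit was tested on simulated data with 200 changed genes.

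Mouse numbers are the same in both tissues because the tissues came from the same animal. The correlation of the deviations of the 2 tissues of a mouse had a median of 0.18 (-0.20 to 0.35) and was above 0.1 in 14 of 20 mice. Named were the 10 genes, every pathway gene called for genotype or diet, the 3 of smallest p in each direction and role between tissues, and, for 5 of the members (*Ndp*, *Fzd4*, *Tspan12*, *Lef1* and *Sox17*), the 3 genes most like each, apart from 2 genes that are not reported here. The 10 genes, the 91 pathway genes and the marker lists were chosen with earlier results of these data known. The samples within a group are separate mice. Alternatives were other pseudocounts (0.5, 5), filters (none, 10), scalings, variance estimates and covariates, and each mouse left out in turn.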

Additional observations from a re-analysis of the deposited data

Results flagged for a closer look

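The highest or lowest mouse of 5 stood apart from the other 4 in 8 of the 80 groups of values examined (10 genes in 8 groups), where 4 are expected by chance, since about 1 group in 20 is picked out without cause. The measure was the gap to the nearest neighbour as a share of the whole range, with a limit of 0.71.

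In choroid, *Ndp* had 94.3 normalised counts in control + PLX mouse 15 with the other 4 at 33.5 to 49.3 (share 0.74), and 98.9 in *Tgfbr2ΔEC* + PLX mouse 18 with the others at 35.2 to 51.6 (share 0.742). *Fzd4* had 5755 in *Tgfbr2ΔEC* + PLX mouse 20 with the others at 4895 to 5084 (share 0.781). *Ctnnb1* had 25162 in control – PLX mouse 2 with the others at 21416 to 22392 (share 0.739).

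In retina, *Axin2* was low in *Tgfbr2ΔEC* + PLX mouse 18, with 708 normalised counts beside 847 to 903 (share 0.712). *Lef1* had 194 in control + PLX mouse 14 beside 39.9 to 61.5 (share 0.86). *Sox17* had 113 in *Tgfbr2ΔEC* + PLX mouse 17 beside 51.0 to 67.6 (share 0.733). *Apcdd1* had 682 in control + PLX mouse 13 beside 392 to 415 (share 0.92), the widest gap of the 8. The same retina of mouse 13 held an RPE score of 5.46 beside 7.40 to 7.74 in the rest of its group, and the choroid of mouse 15 a photoreceptor score of 12.86 beside 7.69 to 10.02. The choroid of mouse 18 had a photoreceptor score of 10.34, beside 9.02 to 10.31.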

How the results depend on the processing

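No paired analysis was possible because the genotype and diet groups share no mouse numbers, except between tissues, where the fit with the mouse as replicate block gave 9 of the 10 genes called, as without the block, and 0 for the difference of the diet effects. Of 388 recomputed counts of called members, 374 stayed within 1.5 times. In choroid the count for PLX5622, 4 as reported, was 2 without the mean-variance trend, 1 with the photoreceptor score and 0 with the endothelial score as a term, and, in alternatives chosen after seeing the data, 2 with the RPE score, 1 in control mice alone and 0 in *Tgfbr2ΔEC* mice alone. With 1 mouse left out it was 2 to 5. It was 0 to 1 for PLX5622 in retina (1 without mouse 13), 0 to 1 for the difference of the diet effects (1 without mouse 14 or 17) and 9 to 10 between tissues. With each of the 20 mice left out in turn, *Sox17* and *Lef1* passed in choroid every time, while *Lrp6* lost its call in 8 cases and *Axin2* in 12. The cause of these changes was not tested.

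The sign turned for *Apcdd1* with PLX5622 in choroid with the endothelial score as a term (log2 -0.0856) and in control mice alone (-0.0028), and for *Ndp* in *Tgfbr2ΔEC* mice alone (-0.0063). Between tissues it turned for *Axin2* under per-million scaling (-0.0002). Subtraction of the endothelial score, which was itself higher in choroid, turned it for *Axin2* (-3.7095), *Ctnnb1* (-2.1873), *Fzd4* (-0.7366), *Lef1* (-2.4250), *Lrp5* (-0.0718), *Lrp6* (-2.7725), *Sox17* (-0.7044) and *Tspan12* (-2.9905).

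Counts over all genes moved as well. For PLX5622 in choroid 1684 became 552 with the endothelial score, 885 in control and 958 in *Tgfbr2ΔEC* mice alone, and 1410 to 2127 with 1 mouse left out. In retina 254 became 154 with a minimum mean of 10 and 120 in *Tgfbr2ΔEC* mice alone. For the genotype in choroid without PLX5622, 1 became 303 when the 2 groups were fitted alone, 0 with a minimum mean of 10, and 1 to 411 with 1 mouse left out, 411 without mouse 15. With PLX5622, 1 became 0 under 7 alternatives and 0 to 1 with 1 mouse left out. Over both diets, 2 became 0 with a minimum mean of 10, 1 under 7 alternatives and 1 to 77 with 1 mouse left out, 77 without mouse 15. In retina with PLX5622 the genotype count was 0 to 1 with 1 mouse left out. For the difference of the diet effects, 332 became 5970 after subtraction of the endothelial score and 278 to 620 with 1 mouse left out. Counts were low for *Ndp* in choroid and for *Lef1* and *Sox17* in retina.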
